A study of Mus musculus with 18 samples.

Results

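Genes for the proteins of the mitochondrial ribosome (mitoribosome) were followed through 18 mouse libraries from pluripotent cells to cultured germline cells. They were taken by name, as every gene whose symbol begins with Mrpl or Mrps and a number. This gave 77 of the 34850 genes with a value, 48 with large subunit symbols (Mrpl) and 29 with small subunit symbols (Mrps). They lie on 17 chromosomes. The rule uses the symbol alone. In all, 76 of the 77 passed the filter for testing, a level of at least 10 RPM (reads scaled to a common library total) in at least 2 libraries. The exception was Mrps2, which ran from 3.63 to 12.2 RPM over the 18 libraries.

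The study concerns growth and survival of primordial germ cell-like cells (PGCLCs) in culture, and each group held 2 libraries. Embryonic stem cells (ESCs) kept in 2 inhibitors and LIF, epiblast-like cells (EpiLCs) made from them with activin A and FGF2, and PGCLCs at day 4 of induction with BMP4, LIF, SCF and EGF were all on C57BL/6 and carried Blimp1-mVenus and Stella-ECFP reporters. The day-4 cells were sorted for mVenus, while no sort is given for ESCs and EpiLCs. PGCLCs of the same reporters but of strain B6D2F1 were sorted at day 4, grown for 7 days on mitomycin-treated m220-5 feeder cells and sorted again (d4c7), in 4 conditions named CsA, FGF10, FGF2 and FR10. Germ cells of E9.5 embryos from B6D2F1 x C57BL/6 with a Stella-EGFP reporter were grown on the same feeders during 5 days and taken by an EGFP sort (E9.5c5), with CsA or FR10. CsA is cyclosporin A, an inhibitor of the phosphatase calcineurin. FR10 names the 2 compounds forskolin and rolipram, which raise cAMP. The protocol gives 1 culture medium, which contains both compounds (forskolin at 10 µM), and does not state condition by condition whether they were kept with CsA, FGF10 or FGF2. No dose of these is stated, and the labels leave unsaid if the number in FGF10 belongs to the name of the factor or is a quantity. Strain, 7 days of culture and feeder contact all differ between d4c7 FR10 and uncultured day-4 PGCLCs and cannot be told apart.

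The mitoribosome translates the few mRNAs encoded by mitochondrial DNA, all of which specify subunits of the oxidative phosphorylation complexes. Its RNAs come from mitochondrial DNA, but each of its proteins is encoded in the nucleus, made on cytosolic ribosomes and imported. The small subunit holds the mRNA and decodes it, and the large subunit joins amino acids and has the exit tunnel for the new chain. Many of its proteins descend from bacterial ribosomal proteins and others exist only in mitochondria. By this division 47 of the tested genes were of the bacterial type and 28 were specific to mitochondria. The remaining 1, Mrps36, carries a ribosomal symbol but encodes a component of the 2-oxoglutarate dehydrogenase complex. Mrps18a and Mrps30, counted here with the small subunit by symbol, encode proteins found in the large subunit in mammals.

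The libraries were made by SC3-seq, which sequences the 3' ends of transcripts from amplified cDNA, and values are RPM with no correction for gene length. Depth, inferred from the commonest low value in each library, was 2129399 to 7547682 reads, at which 3 reads equal 0.397 to 1.41 RPM. That floor covers counting error only, since the cDNA was amplified and no molecular identifiers are described. Marker genes matched the labels in some lists and less clearly in others. The summed level of 8 naive pluripotency markers was 56.5 and 58.9 RPM in EpiLCs and 1893 and 1935 RPM in ESCs. That of 8 early germ cell markers was 38.9 and 51.1 RPM in EpiLCs and 1572 and 1740 RPM in day-4 PGCLCs. But 8 later germ cell markers summed to 133 and 140 RPM in EpiLCs, and to 296 and 1095 RPM in the E9.5c5 FR10 libraries. The summed level of 13 feeder and fibroblast markers was highest in ESCs, at 417 and 456 RPM. But in ESCs 6 of the 13 were at 0 in both libraries. Only 1 reached 10 RPM in both ESC libraries, against 5 in both d4c7 FR10 libraries, so the sum does not rank the groups by the list as a whole. The extraction protocol calls the replicates of the cultured groups biological. Nothing says so of ESCs, EpiLCs and day-4 PGCLCs, whose replicates may be technical. The p-values below rest on a spread shared by all 9 groups. For these 3 groups they therefore do not measure the spread between biological replicates of the groups compared. The median absolute log2 difference between replicates over the 76 genes was lowest in ESCs, at 0.110, and highest in E9.5c5 CsA, at 0.425. Replicate 2 of d4c7 FGF2, E9.5c5 FR10 and E9.5c5 CsA differed from replicate 1 partly alike over all tested genes. Correlations of the log2 differences were 0.184, 0.257 and 0.340 between these groups. They were not alone in this, since d4c7 CsA and d4c7 FGF10 had a correlation of 0.209. Counts without replicate 2 of d4c7 FGF2, E9.5c5 FR10 and E9.5c5 CsA (3 libraries) are given beside results of comparisons that do not contain these groups. These are bulk libraries, in which fewer cells of a type and less RNA per cell cannot be told apart.

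For 68 of the 77 genes a promoter sequence was available, from 250 bases before to 50 bases after the transcription start (RefSeq, GRCm38.p6). Both strands were searched for the letters of 3 motifs known from promoters of nuclear genes for mitochondria. CCGGAAG, the ETS type bound by GABP, was found in 25 genes (36.8%), against 9.93% of all 27025 genes with such a sequence. TGCGCA, the core of the NRF1 motif, was found in 20 genes (29.4%), against 8.79% of all. AAGATGG, the YY1 type, was found in 13 genes (19.1%), against 7.28% of all. At least 1 of the 3 was present in 43 genes (63.2%), against 22.8% of all, and the windows of the mitoribosome genes also had a higher median GC content, 58.5% against 52.7%. The 3 motifs do not overlap one another in their letters in the promoters printed here. A match is a description of the sequence and not a shown binding site.

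The promoters of 5 genes are shown as examples from the wide-ranging genes with a promoter sequence, each called in at least 1 comparison with day-4 PGCLCs. Their levels are given in the next paragraphs. Each is written 5′ to 3′ on the strand of the gene, with motif matches in capitals. Mrpl23 (chr7:142532782-142533081, + strand) had the NRF1 core, Mrpl9 (chr3:94443086-94443385, + strand) had the NRF1 core, and Mrpl27 (chr11:94653541-94653840, + strand) had the ETS letters.
Mrpl23: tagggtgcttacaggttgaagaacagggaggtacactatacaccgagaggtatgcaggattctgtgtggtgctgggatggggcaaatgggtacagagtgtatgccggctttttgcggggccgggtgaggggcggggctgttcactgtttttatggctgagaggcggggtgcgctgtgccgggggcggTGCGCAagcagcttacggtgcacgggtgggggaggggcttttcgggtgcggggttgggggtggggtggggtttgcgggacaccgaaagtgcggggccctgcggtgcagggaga
Mrpl9: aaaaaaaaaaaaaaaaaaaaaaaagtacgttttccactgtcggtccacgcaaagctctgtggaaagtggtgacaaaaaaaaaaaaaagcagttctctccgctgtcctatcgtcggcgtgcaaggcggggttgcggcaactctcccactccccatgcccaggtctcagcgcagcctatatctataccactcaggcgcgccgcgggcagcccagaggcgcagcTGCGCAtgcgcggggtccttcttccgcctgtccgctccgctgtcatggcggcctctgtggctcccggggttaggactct
Mrpl27: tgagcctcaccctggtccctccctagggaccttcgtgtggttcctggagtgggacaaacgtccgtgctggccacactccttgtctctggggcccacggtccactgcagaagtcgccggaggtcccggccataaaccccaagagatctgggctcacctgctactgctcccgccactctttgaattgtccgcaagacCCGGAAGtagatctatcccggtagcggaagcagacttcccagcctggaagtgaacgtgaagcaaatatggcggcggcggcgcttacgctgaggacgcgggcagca
Mrps24 (chr11:5707652-5707951, - strand) had the NRF1 core and the YY1 letters. Mrps16 (chr14:20393441-20393740, - strand, 1 of 2 windows given for this gene) had the NRF1 core and, on the opposite strand, the ETS letters at 2 places.
Mrps24: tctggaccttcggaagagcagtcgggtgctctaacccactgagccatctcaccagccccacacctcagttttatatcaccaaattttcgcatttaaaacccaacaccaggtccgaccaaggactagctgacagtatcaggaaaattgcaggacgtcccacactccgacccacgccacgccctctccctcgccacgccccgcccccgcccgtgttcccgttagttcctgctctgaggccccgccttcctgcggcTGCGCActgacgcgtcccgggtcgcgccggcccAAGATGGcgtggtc
Mrps16: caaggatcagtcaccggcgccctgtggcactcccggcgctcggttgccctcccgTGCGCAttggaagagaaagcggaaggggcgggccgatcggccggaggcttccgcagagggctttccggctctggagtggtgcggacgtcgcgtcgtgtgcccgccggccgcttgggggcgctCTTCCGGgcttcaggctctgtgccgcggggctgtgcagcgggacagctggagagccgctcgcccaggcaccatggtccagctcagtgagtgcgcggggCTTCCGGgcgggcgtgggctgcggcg
The first set of 3 was highest, and the second set of 2 lowest, in day-4 PGCLCs among the uncultured groups, and both sets contained the NRF1 core. Over all members, at least 1 motif was present in 8 of the 11 genes with a promoter that were called higher in day-4 PGCLCs than in EpiLCs, in 7 of the 11 called lower and in 28 of the 45 not called.

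Summed over all 77 genes, mitoribosome transcripts were 0.739% to 0.919% of a library. The sum was 7384 and 7636 RPM in ESCs, 8190 and 8245 RPM in EpiLCs and 7598 and 7577 RPM in day-4 PGCLCs. In the d4c7 cultures it was 8722 and 8464 RPM with CsA, 8802 and 8801 RPM with FGF10, 8860 and 9185 RPM with FGF2, and 8341 and 8415 RPM with FR10. In the E9.5c5 cultures it was 8223 and 8381 RPM with CsA and 8745 and 8500 RPM with FR10. The total therefore stayed within a narrow band, with ESCs and day-4 PGCLCs at its low end. The small subunit genes alone summed to 2163 and 2260 RPM in day-4 PGCLCs, below each of the other 16 libraries, while the large subunit genes were lowest in ESCs (4944 and 5241 RPM). With 2 libraries against 2, an exact permutation test of such a sum cannot give a two-sided p below 0.333, and no other test of the sums was run.

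**Figure D1:**
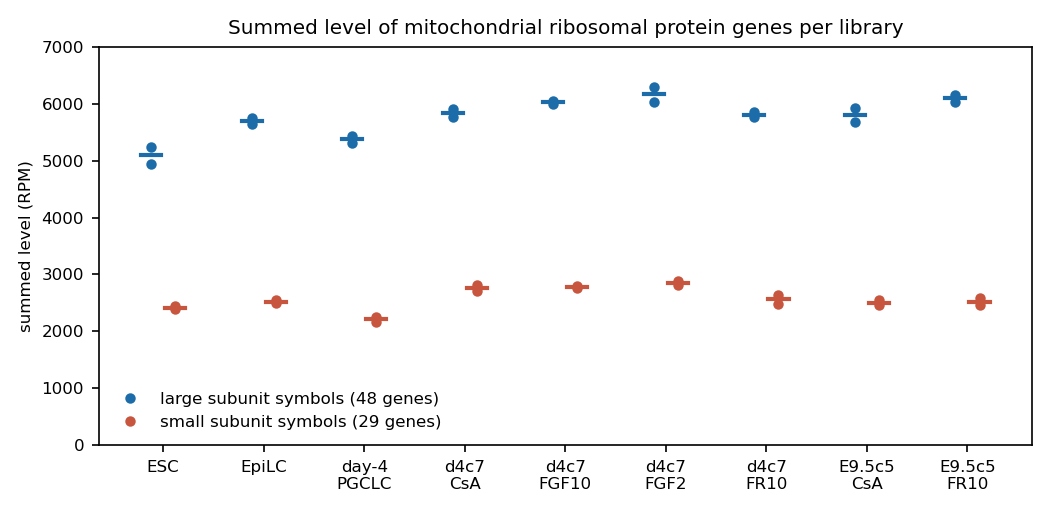
Summed level in RPM of the 48 large subunit genes and the 29 small subunit genes in each of the 18 libraries, by group; points are libraries and short lines are group means. The small subunit sum is lowest in the 2 day-4 PGCLC libraries, at 2163 and 2260 RPM.

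Single genes moved more than the total did. The distance between the highest and the lowest of the 9 group means had a median of 0.95 on the log2(RPM + 1) scale over the 76 genes, against 1.60 over all 9561 tested genes, and exceeded 1 in 33 of the 76 (43.4%) against 82.5% of all. The mitoribosome genes were also the more abundant set, with a median level of 94.4 RPM against 29.2 RPM; the 2 sets are not matched in level. The widest distances were those of Mrps28 (3.85), Mrpl9 (3.57), Mrpl27 (2.26), Mrps24 (2.23), Mrpl23 (2.22), Mrpl39 (1.97) and Mrps16 (1.92). The narrowest was that of Mrps17, 0.41. Mrps17 ran from 93.1 to 143 RPM over all 18 libraries.

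Mrps28, which encodes a small subunit protein of the bacterial S1 family, had 34.4 and 34.2 RPM in ESCs, 39.6 and 46.4 RPM in EpiLCs and 114 and 87.1 RPM in day-4 PGCLCs. In d4c7 cells it had 6.37 and 9.37 RPM with CsA, 8.53 and 9.79 RPM with FGF10, 5.33 and 6.80 RPM with FGF2, and 12.4 and 13.1 RPM with FR10, and in E9.5c5 cells 10.8 and 9.43 RPM with CsA and 9.19 and 15.8 RPM with FR10. The day-4 libraries were the highest of all 18 and the 12 cultured libraries the lowest, with no overlap between these levels and those of ESCs and EpiLCs. Mrpl9, a large subunit protein related to bacterial L9, had 13.6 and 16.5 RPM in ESCs, 25.7 and 21.3 RPM in EpiLCs and 56.8 and 42.7 RPM in day-4 PGCLCs. Across the 12 cultured libraries it stayed between 2.28 and 10.4 RPM, again below every uncultured library.

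Mrpl27, whose protein lies near the peptidyl transferase centre, showed the same order at day 4. It had 24.0 and 23.3 RPM in ESCs, 27.4 and 24.4 RPM in EpiLCs and 71.9 and 47.9 RPM in day-4 PGCLCs. In culture it ran from 8.37 RPM in a d4c7 FGF2 library to 23.8 RPM in a d4c7 FR10 library, so that 1 of the FR10 libraries reached the level of ESCs. Mrpl23, a protein at the exit tunnel, differed from these 3 because it did not come down in culture. It had 79.0 and 90.3 RPM in ESCs, 127 and 127 RPM in EpiLCs and 249 and 239 RPM in day-4 PGCLCs. It had 391 and 367 RPM in d4c7 CsA, 362 and 318 RPM in d4c7 FGF10, 370 and 426 RPM in d4c7 FGF2 and 329 and 315 RPM in d4c7 FR10. All 8 of these libraries were above the day-4 libraries. Mrpl23 lies on chromosome 7 (142532467 to 142540747, GRCm38.p6). Its nearest annotated neighbour is Nctc1, at 3.86 kb, and the imprinted gene H19 lies at 34.8 kb. A relation between the level of Mrpl23 and its neighbours was not tested.

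Mrps24, a small subunit protein at the entry of the mRNA, had the opposite pattern. Its level was 162 and 141 RPM in ESCs, 131 and 135 RPM in EpiLCs and 88.8 and 78.0 RPM in day-4 PGCLCs, the lowest of the 18 libraries. It was 279 and 314 RPM in d4c7 CsA, 289 and 328 RPM in d4c7 FGF10, 390 and 400 RPM in d4c7 FGF2, and 238 and 259 RPM in d4c7 FR10. The d4c7 groups CsA, FGF10 and FGF2 all lay above FR10 without overlap, and FGF2 was the highest. In E9.5c5 cells it was 248 and 165 RPM with CsA and 244 and 213 RPM with FR10, where the groups overlapped. Mrps16, a bacterial-type small subunit protein, had 128 and 153 RPM in ESCs, 134 and 132 RPM in EpiLCs and 60.1 and 48.3 RPM in day-4 PGCLCs. It ran from 95.3 to 226 RPM in the 12 cultured libraries, and the day-4 pair was again the lowest.

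**Figure D2:**
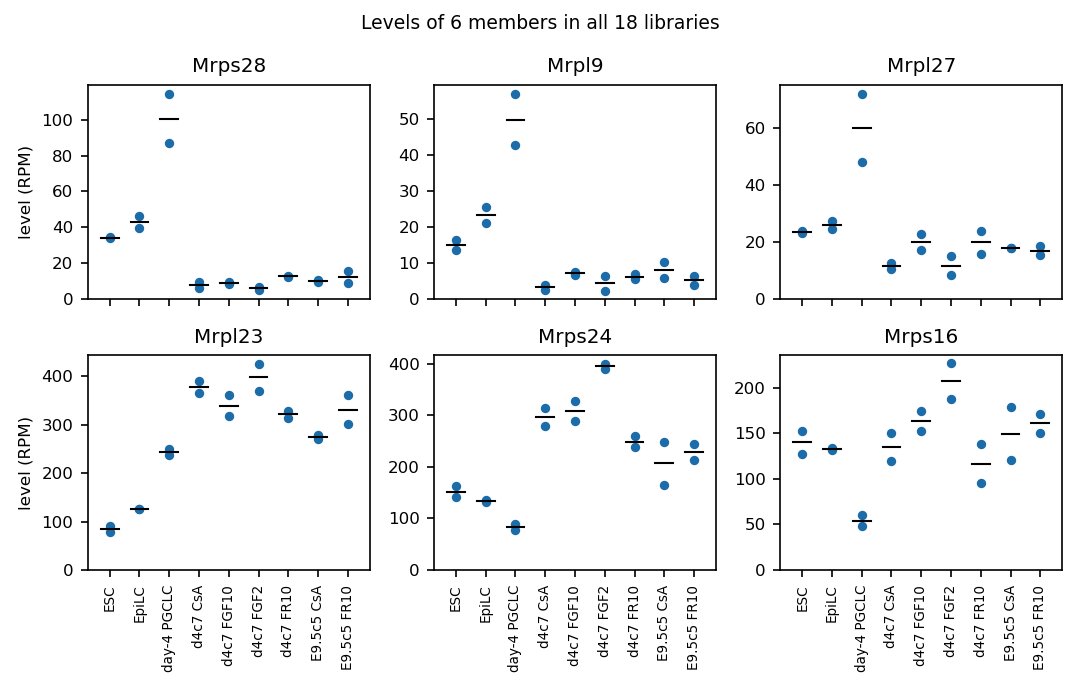
Levels in RPM of 6 mitoribosome genes in all 18 libraries, by group; points are libraries and short lines are group means, and each panel has its own vertical axis starting at 0. Mrps28, Mrpl9 and Mrpl27 peak in day-4 PGCLCs, Mrps24 and Mrps16 are lowest there, and Mrpl23 is at 249 and 239 RPM in day-4 PGCLCs and higher still in d4c7 cells.

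Differences were tested gene by gene with limma on log2(RPM + 1) over all 9561 genes, a scale that understates the change of low genes, and a gene was called at a Benjamini-Hochberg adjusted p under 0.05. All adjusted p-values are from that fit. Over the 9 comparisons 31 of the 76 genes were called at least once and 45 never. The share of all tested genes called at least once was not computed, so this count is not read as a trait of the set. Day-4 PGCLCs against EpiLCs alone had 39.6% of all tested genes called. Mrpl13, Mrps16 and Mrps24 were called in 4 comparisons each, and Mrpl23, Mrpl27 and Mrps28 in 3. For each call given below the libraries of the 2 groups did not overlap.

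**Figure D3:**
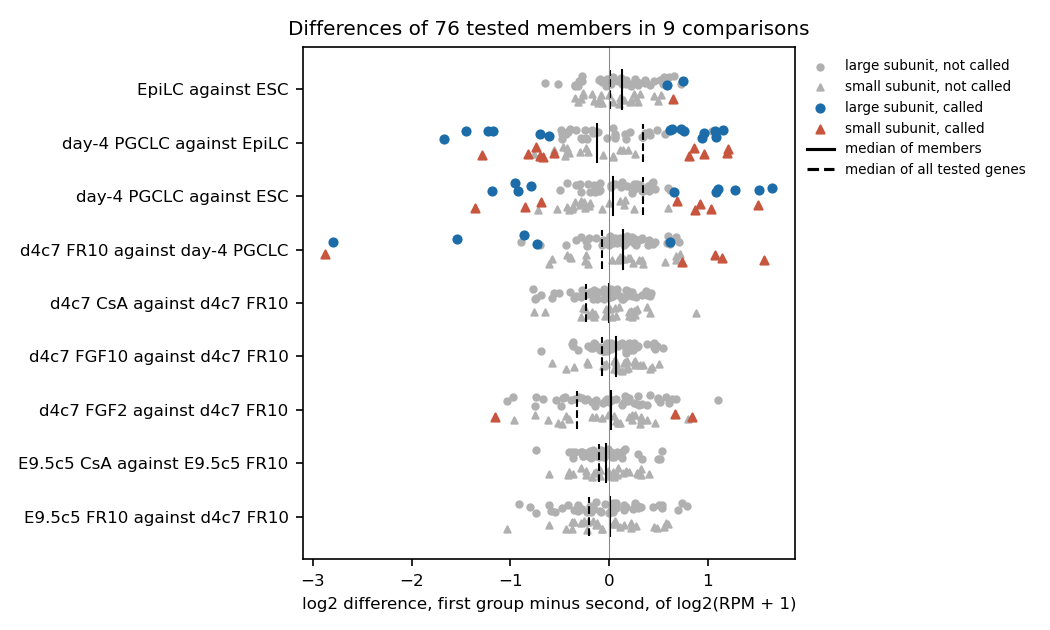
Log2 differences (first group minus second, log2(RPM + 1)) of the 76 tested mitoribosome genes in 9 comparisons; coloured points passed an adjusted p of 0.05 in limma, solid lines are medians of these genes and dashed lines medians of all 9561 tested genes. Most calls of members lie in the 3 comparisons that involve day-4 PGCLCs. Over all 9561 tested genes the calls there were 3784 (against EpiLCs), 3299 (against ESCs) and 1456 (d4c7 FR10), with 1525 in EpiLCs against ESCs. The members' median lies below that of all genes in day-4 PGCLCs against EpiLCs (-0.13 against 0.34). With 1 library left out it was -0.097 to -0.016 for the members.

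EpiLCs and ESCs were close. In EpiLCs 3 of the 76 genes were higher and 0 lower, while of all tested genes 16.0% were called, 7.09% higher and 8.86% lower. At an unadjusted p under 0.05 the count was 9, and no share of all tested genes at that threshold is given beside it. Mrpl13, a bacterial-type large subunit protein, had 346 and 359 RPM in EpiLCs and 188 and 232 RPM in ESCs, a log2 difference of 0.75 ± 0.20 (SE, adjusted p = 0.0133). Mrpl23 was higher by 0.58 ± 0.16 (adjusted p = 0.0190), and Mrps18a by 0.65 ± 0.21 (adjusted p = 0.0493), with 58.5 and 66.5 RPM in EpiLCs and 41.6 and 37.4 RPM in ESCs. The median over the 76 genes was 0.13, against 0.01 over all tested genes. None of these 3 calls was stable to the number of libraries: with 1 library of either group left out, between 0 and 1 of the 76 genes was called. Without the 3 libraries named at the start the count was 10, of which 8 were higher and 2 lower. In that setting 2806 of all 9435 tested genes were called, against 1525 of 9561 with all libraries.

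In day-4 PGCLCs the set divided. Against EpiLCs 14 of the 76 genes were higher and 12 lower, which is 18.4% and 15.8%. Of all tested genes 27.5% were higher and 12.1% lower, so the share called higher lay below that of all tested genes and the share called lower close to it, a difference that was not tested. The median difference was -0.13 over the 76 genes and 0.34 over all tested genes. With 1 library of either group left out, the median over the members ran from -0.097 to -0.016. Large subunit genes had 9 higher and 6 lower of 48 with a median of 0.01, and small subunit genes 5 higher and 6 lower of 28 with a median of -0.27. With 1 library left out the large subunit median changed sign, between -0.076 and 0.047, and the small subunit median lay between -0.309 and -0.186. Both bacterial-type genes (11 higher and 9 lower of 47) and mitochondria-specific genes (3 higher and 3 lower of 28) were called in both directions.

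The split into higher and lower depended on scaling. RPM divides by the library total, and with median-ratio factors, which centre the median gene, the median of all tested genes moved to 0.00 and that of the mitoribosome genes to -0.48. Under that scaling 4 were higher and 28 lower, against 17.4% higher and 18.7% lower of all tested genes. Large subunit genes then had 3 higher and 15 lower with a median of -0.35, and small subunit genes 1 higher and 13 lower with a median of -0.62. The 4 that were higher under both scalings were Mrps6, Mrpl41, Mrpl3 and Mrpl23. The 10 others that were higher on RPM were no longer called, Mrps28 and Mrpl27 among them (adjusted p = 0.0743 and 0.0955 with median-ratio factors).

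Of the genes that were lower, Mrpl13 had the smallest adjusted p, with 102 and 118 RPM in day-4 PGCLCs and 346 and 359 RPM in EpiLCs, a log2 difference of -1.67 ± 0.20 (adjusted p = 6.06e-06). Mrpl47, a large subunit protein related to bacterial L29, had 69.0 and 79.6 RPM in day-4 PGCLCs against 204 and 204 RPM in EpiLCs (-1.45 ± 0.31, adjusted p = 0.00131). Mrps16 followed at -1.29 ± 0.23 (adjusted p = 0.000410). In each the day-4 libraries were below both EpiLC libraries, and both subunits were represented. Mrpl20 had 99.1 and 142 RPM in day-4 PGCLCs against 270 and 291 RPM in EpiLCs (-1.23 ± 0.27, adjusted p = 0.00165), and Mrpl32 differed by -1.17 ± 0.28 (adjusted p = 0.00320). Smaller differences were called for Mrps25 (-0.82), Mrps26 (-0.74), Mrpl35 (-0.70), Mrps21 (-0.70) and Mrps24 (-0.67 ± 0.19, adjusted p = 0.0110). The other 2 called lower were Mrpl28 and Mrps33.

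Of the genes that were higher, Mrps6, a small subunit protein related to bacterial S6, had 105 and 83.3 RPM in day-4 PGCLCs and 46.8 and 34.0 RPM in EpiLCs (1.21 ± 0.27, adjusted p = 0.00213). Another annotated gene, Gm49711, has an exon on the same strand over the last 500 bases of Mrps6, so its reads may be shared. Mrpl41, a mitochondria-specific large subunit protein, had 111 and 84.6 RPM in day-4 PGCLCs and 48.8 and 42.2 RPM in EpiLCs (1.08 ± 0.24, adjusted p = 0.00213). Mrpl3 had 164 and 149 RPM in day-4 PGCLCs and 76.8 and 71.6 RPM in EpiLCs (1.07 ± 0.28, adjusted p = 0.00651). For all 3 the day-4 libraries were above both EpiLC libraries. Mrps28 (1.20 ± 0.34, adjusted p = 0.0112), Mrpl27 (1.15 ± 0.35, adjusted p = 0.0150) and Mrpl23 (0.94 ± 0.16, adjusted p = 0.000246) were also called, as were Mrps7 (0.86) and Mrps31 (0.80). The other 6 were Mrpl38, Mrps9, Mrpl14, Mrpl19, Mrpl17 and Mrpl36.

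**Figure D4:**
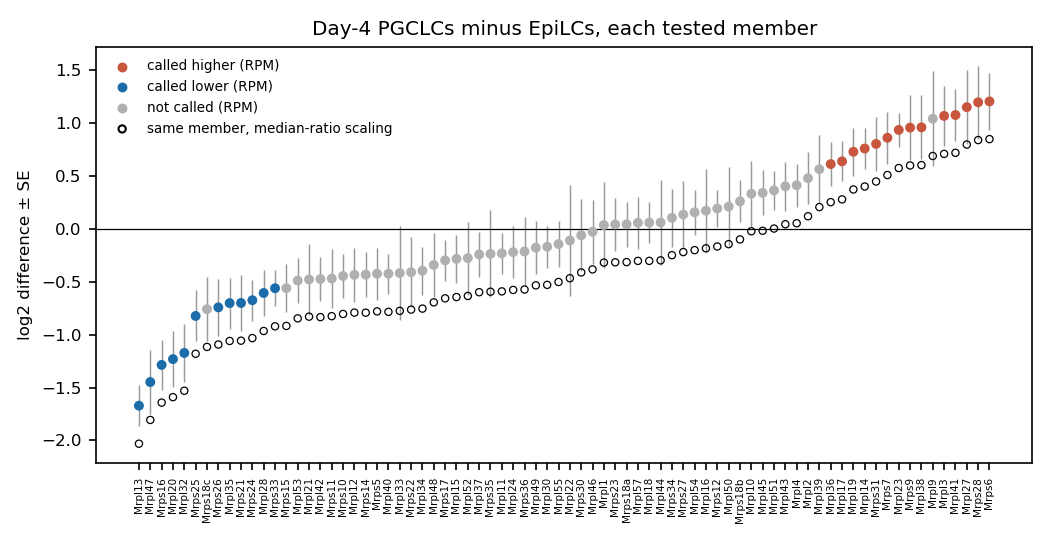
Log2 difference (day-4 PGCLC minus EpiLC, log2(RPM + 1)) of each of the 76 tested genes in order of size; filled points with SE are from RPM as deposited, and open circles are the same genes under median-ratio scaling. Mrpl13 is lowest at -1.67 and Mrps6 highest at 1.21, and the open circles lie below the filled points.

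Leaving out 1 library of either group gave between 9 and 18 calls, against 26 with all libraries and 39 without the 3 libraries named at the start. The least was 9, without replicate 1 of EpiLC, followed by 12 without replicate 1 of day-4 PGCLC and 16 without replicate 2 of EpiLC. Mrpl13, Mrpl47, Mrps16, Mrpl20, Mrps6, Mrpl41 and Mrpl23 were called in each of the 12 alternatives, these 4 included. Without the 3 libraries named at the start, 5263 of all 9435 tested genes were called, against 3784 of 9561 with all libraries. The EpiLCs were not reported as sorted and the day-4 cells were. The summed level of 8 mesoderm markers was 175 and 193 RPM in day-4 PGCLCs against 5.33 and 6.19 RPM in EpiLCs, and the part of this in the results was not tested.

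Against ESCs, day-4 PGCLCs had 11 of the 76 genes higher and 7 lower, where 24.3% of all tested genes were higher and 10.2% lower. This comparison has its day-4 libraries in common with the one against EpiLCs and is no separate test of them. Mrpl23 had the smallest adjusted p, with a log2 difference of 1.52 ± 0.16 (adjusted p = 2.83e-06). Mrpl9, which was not called against EpiLCs, differed by 1.65 ± 0.45 (adjusted p = 0.00876), and Mrps28 by 1.51 ± 0.34 (adjusted p = 0.00275). Lower were Mrps16 (-1.36 ± 0.23, adjusted p = 0.000314), Mrpl13 (-0.92 ± 0.20, adjusted p = 0.00166) and Mrps24 (-0.85 ± 0.19, adjusted p = 0.00267). Of all tested genes 4872 of 9435 were called without the 3 libraries named at the start, against 3299 of 9561 with all libraries. Under median-ratio scaling 6 members were higher and 18 lower, against 14.5% and 15.7% of all tested genes. The count called, 18 with all libraries, was 7 without replicate 1 of day-4 PGCLC, 8 without replicate 2 of ESC and 10 without replicate 1 of ESC, and 29 without the 3 libraries.

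After 7 days of culture in FR10, 5 genes were higher and 5 lower than in day-4 PGCLCs, against 7.01% higher and 8.22% lower of all tested genes. The 5 that were higher were 4 small subunit genes and 1 large, and the 5 that were lower were 4 large and 1 small. Mrps28 was lower, with a log2 difference of -2.87 ± 0.34 (adjusted p = 3.73e-05), with a mean of 12.8 ± 0.515 RPM in d4c7 FR10 and 101 ± 19.1 RPM in day-4 PGCLCs (SD, n = 2 each). Mrpl9 differed by -2.80 ± 0.45 (adjusted p = 0.000466) and Mrpl27 by -1.54 ± 0.35 (adjusted p = 0.00653). These were 3 of the genes that were highest at day 4. Mrpl2 (-0.86) and Mrpl36 (-0.73) were lower with adjusted p of 0.0247 and 0.0255.

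Mrps24 was higher in d4c7 FR10 by 1.57 ± 0.19 (adjusted p = 4.77e-05) and Mrps16 by 1.08 ± 0.23 (adjusted p = 0.00520). Mrps26, a mitochondria-specific small subunit protein, had 65.1 and 68.4 RPM in d4c7 FR10 and 27.7 and 31.7 RPM in day-4 PGCLCs (1.14 ± 0.27, adjusted p = 0.00888). Mrps12, a protein of the decoding site, had 149 and 183 RPM in d4c7 FR10 and 99.1 and 98.3 RPM in day-4 PGCLCs (0.74 ± 0.17, adjusted p = 0.00773). All 4 small subunit genes lay above the day-4 libraries without overlap. Mrpl13 was higher by 0.61 ± 0.20 (adjusted p = 0.0433), with 152 and 188 RPM in d4c7 FR10 against 102 and 118 RPM at day 4. Mrpl13, Mrps16, Mrps24 and Mrps26 had been lower, and Mrps28, Mrpl27 and Mrpl36 higher, in day-4 PGCLCs than in EpiLCs, but the day-4 libraries enter both comparisons. The count called was 4 without replicate 1 of day-4 PGCLC or without replicate 2 of d4c7 FR10, and 6 without replicate 2 of day-4 PGCLC. Feeder and fibroblast markers, 13 genes, summed to 251 and 295 RPM in d4c7 FR10 against 334 and 351 RPM in day-4 PGCLCs. Lum and Thy1 were at 0 in the FR10 libraries and Dcn, Lum and Lox at 0 at day 4. The number of these markers at 10 RPM or more in both libraries went the other way, 5 in d4c7 FR10 against 1 in day-4 PGCLCs. The 8 mesoderm markers summed to 14.7 and 17.95 RPM in d4c7 FR10 against 175 and 193 RPM in day-4 PGCLCs, with T and Cdx2 at 0 in both FR10 libraries. The 8 later germ cell markers summed to 1032 and 1202 RPM in d4c7 FR10 against 15.0 and 25.9 RPM in day-4 PGCLCs. The part of these marker levels in the results was not tested. Without the 3 libraries named at the start, none of them in this comparison, 24 of the 76 genes were called, 17 higher and 7 lower. In that setting 2941 of all 9435 tested genes were called, against 1456 of 9561 with all libraries.

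**Figure D5:**
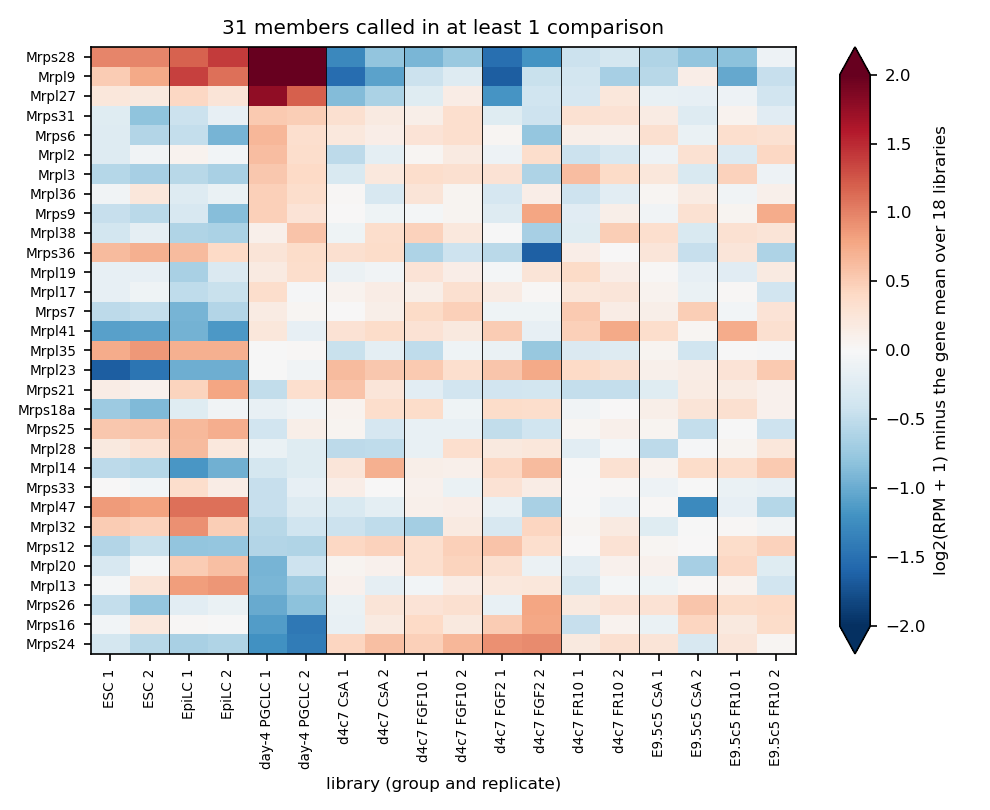
Levels of the 31 genes called in at least 1 comparison, as log2(RPM + 1) minus the mean of the gene over the 18 libraries, with 1 column per library; red is above and blue below the mean, and colours saturate at 2 and -2. Genes are ordered by their day-4 PGCLC level, so Mrps28 and Mrpl9 are at the top and Mrps16 and Mrps24 at the bottom.

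Among the cultured PGCLCs, 3 genes were called in the condition named FGF2 against FR10, all with small subunit symbols, 2 higher and 1 lower. Of all tested genes 1.37% were higher and 7.47% lower. Mrps16 had 188 and 226 RPM with FGF2 and 95.3 and 138 RPM with FR10, a log2 difference of 0.84 ± 0.23 (adjusted p = 0.0376). Mrps24 differed by 0.67 ± 0.19 (adjusted p = 0.0425). Both were thus higher than with FR10, which in turn was above day 4. Mrps36, the dehydrogenase component, had 67.7 and 31.3 RPM with FGF2 and 109 and 99.4 RPM with FR10 (-1.16 ± 0.32, adjusted p = 0.0376). It is the only one of the 3 that was lower, and its FGF2 replicates were far apart, replicate 2 being the low one. Replicate 2 of E9.5c5 CsA and of E9.5c5 FR10 was also the lower for this gene, with 71.6 RPM against 117 RPM in replicate 1 of CsA and 64.3 RPM against 117 RPM in replicate 1 of FR10. Mrps36 was called in 6 of 12 alternatives, with log2 differences of -1.70 to -0.61, and the part of these libraries in its call was not tested. The median was 0.02 over the 76 genes and -0.33 over all tested genes. With median-ratio factors these medians were 0.32 and -0.03, and 7 genes were higher and 0 lower, against 3.00% higher and 2.73% lower of all tested genes. The call of Mrps36 was lost under that scaling (adjusted p = 0.0714). The calls of Mrps16, Mrps24 and Mrps36 were not stable to the removal of 1 library of either group. Over 12 alternatives the log2 difference ran from 0.58 to 1.15 for Mrps16 and from 0.61 to 0.98 for Mrps24. The FGF2 replicates differed by a median of 0.328 on the log2 scale over the 76 genes, more than those of FR10 (0.209). The 8 early germ cell markers summed to between 965 and 1191 RPM with FGF2 and between 2156 and 2195 RPM with FR10. For the 8 later germ cell markers the sums overlapped, 1124 to 1244 RPM with FGF2 and 1032 to 1202 RPM with FR10. The part of these marker levels in the results was not tested.

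With CsA 0 of the 76 genes were called against FR10 by limma, against 0.0314% of all tested genes. At an unadjusted p under 0.05 were 3 of the 76, with no share of all tested genes at that threshold given. Mrps21 had 90.9 and 71.9 RPM with CsA and 43.4 and 43.5 RPM with FR10, a log2 difference of 0.88 ± 0.26 (adjusted p = 0.179). Mrpl45 differed by -0.51 ± 0.21 (adjusted p = 0.306) and Mrps22 by -0.76 ± 0.33 (adjusted p = 0.328). For these 3 the libraries of the groups did not overlap, yet the differences did not pass. The median of the 76 genes was 0.00 and that of all tested genes -0.24. With median-ratio factors the medians were 0.23 and -0.02, still with 0 of the 76 called, against 0.0941% of all tested genes. Without the 3 libraries, none of them in this comparison, 4 were called, 1 higher and 3 lower. In that setting 968 of all 9435 tested genes were called, against 3 of 9561 with all libraries. The 8 later germ cell markers summed to between 523 and 668 RPM with CsA and between 1032 and 1202 RPM with FR10. The 8 early germ cell markers overlapped, at 2033 to 2172 RPM with CsA and 2156 to 2195 RPM with FR10. The part of these levels in the results was not tested.

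With FGF10 0 of the 76 genes were called against FR10 by limma, and 0 of all tested genes (0%). An unadjusted p under 0.05, for which no share of all tested genes is given, was reached by 3 of the 76. Those were Mrpl36 (0.46 ± 0.21), Mrps16 (0.50 ± 0.23) and Mrpl39 (-0.69 ± 0.32), each with an adjusted p of 0.979. Mrps16 had 175 and 152 RPM with FGF10 and 95.3 and 138 RPM with FR10. Mrps16 was above FR10 in the conditions named FGF10 and FGF2, and the difference passed with FGF2. Whether these conditions differ from each other was not tested, and a difference that does not pass is not shown to be absent. The 8 early germ cell markers summed to between 1395 and 1501 RPM with FGF10 and between 2156 and 2195 RPM with FR10, and the part of this was not tested.

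In the E9.5 germ cells, CsA against FR10 gave 0 calls among the 76 genes and 0% among all tested genes, with 1 of the 76 and 703 of 9561 at an unadjusted p under 0.05 in limma. Mrps12 had 152 and 149 RPM with CsA and 193 and 206 RPM with FR10, a log2 difference of -0.40 ± 0.17 (adjusted p = 0.638). Mrps17 differed by 0.40 ± 0.19 (adjusted p = 0.677) and Mrpl28 by -0.41 ± 0.22 (adjusted p = 0.712). Without replicate 1 of E9.5c5 CsA, 3 of the 76 genes were called. The 2 E9.5c5 CsA replicates differed by a median of 0.425 on the log2 scale, the largest spread of the 9 groups. The CsA effect in E9.5c5 minus that in d4c7 gave 0 calls among the 76 genes by limma and 0% among all tested genes. At an unadjusted p under 0.05 were 6 of the 76, with no share of all tested genes at that threshold given. The smallest p were those of Mrps12 (-0.69 ± 0.24), Mrps21 (-1.03 ± 0.37) and Mrps17 (0.65 ± 0.27), each with an adjusted p of 0.728.

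Cultured E9.5 germ cells were also set against cultured PGCLCs, both in FR10. Here 0 of the 76 genes were called in E9.5c5 FR10 against d4c7 FR10 by limma, against 0.0418% of all tested genes. At an unadjusted p under 0.05 were 12 of the 76. The share of all tested genes at that threshold is not given, so the 12 are not read as a trait of the set. Mrps22 had 45.6 and 22.6 RPM in E9.5c5 FR10 and 74.7 and 60.1 RPM in d4c7 FR10 (-1.04 ± 0.33, adjusted p = 0.202). Mrpl57 had 320 and 411 RPM in E9.5c5 FR10 and 201 and 235 RPM in d4c7 FR10 (0.74 ± 0.25, adjusted p = 0.219), and Mrpl4 differed by 0.54 ± 0.20 (adjusted p = 0.263). The groups also differ in strain, reporter and days of culture. Without replicate 1 of E9.5c5 FR10, 1 of the 76 genes was called.

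Of the genes followed whatever their values, 4 were called in no comparison. Mrpl11, near the factor-binding site of the large subunit, ran from 84.8 to 150 RPM over the 18 libraries. Mrpl12, which also binds the mitochondrial RNA polymerase, ran from 50.6 to 119 RPM, with 82.2 and 50.6 RPM in day-4 PGCLCs against 84.2 and 90.9 RPM in EpiLCs. Mrpl44 ran from 28.7 to 92.0 RPM and Mrps18b from 113 to 172 RPM. An exon of another gene, Gm16755 for Mrpl12 and Gm16279 for Mrps18b, lies on the opposite strand over their last 500 bases, and without a stated strand setting such reads cannot be told apart. The same holds for Mrps7 with Mif4gd, Mrps25 with Nr2c2 and Mrpl19 with Gcfc2.

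Other genes of mitochondrial translation were read from 6 lists of 78 genes, of which 71 were tested. Their counts in day-4 PGCLCs against EpiLCs stand beside 27.5% higher and 12.1% lower, with a median of 0.34, over all tested genes. In day-4 PGCLCs against EpiLCs, 6 of 16 mitochondrial aminoacyl-tRNA synthetases were higher and 0 lower, with a median of 0.50. Iars2, the isoleucine enzyme, averaged 73.8 ± 9.1 RPM in day-4 PGCLCs and 25.5 ± 3.8 RPM in EpiLCs (SD, n = 2 each; 1.50 ± 0.39, adjusted p = 0.00634). Of 11 translation factors 3 were higher and 0 lower, Mtif2, Mtrf1 and Mtrf1l, with Mtif2, the initiation factor, at 20.9 ± 0.94 RPM in day-4 PGCLCs and 6.53 ± 0.071 RPM in EpiLCs (SD, n = 2 each; 1.54 ± 0.41, adjusted p = 0.00710). Of 12 genes of mitochondrial transcription and mRNA stability 6 were higher and 1 lower. Pnpt1, an RNA-degrading enzyme, averaged 107 ± 7.0 RPM in day-4 PGCLCs and 22.6 ± 6.9 RPM in EpiLCs (SD, n = 2 each; 2.22 ± 0.36, adjusted p = 0.000140), and Polg, the mitochondrial DNA polymerase, differed by 1.31 ± 0.22 (adjusted p = 0.000187). The assembly and rRNA modification list had 2 higher and 2 lower of 18, with Fastkd2 (1.10) and Tfb1m (1.06) higher and Ddx28 (-0.96) and Ngrn (-0.86) lower. Of 6 mitoribosome proteins with other symbols 0 were higher and 1 lower, Chchd1, with a log2 difference of -1.26 ± 0.17 (adjusted p = 2.26e-05). With median-ratio factors the counts were 3 higher and 1 lower for synthetases (median 0.15), 2 and 1 for translation factors, 4 and 1 for transcription and mRNA stability, 1 and 4 for assembly and 0 and 2 for proteins with other symbols.

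Of 8 regulators of nuclear genes for mitochondria, Mycn (1.39 ± 0.23, adjusted p = 0.000192) and Pprc1 (1.00 ± 0.25, adjusted p = 0.00474) were higher in day-4 PGCLCs than in EpiLCs and Myc was lower (-2.23 ± 0.59, adjusted p = 0.00656). In d4c7 FR10 against day-4 PGCLCs the counts stand beside 7.01% higher and 8.22% lower of all tested genes. They were 0 higher and 2 lower of 12 for transcription and mRNA stability, 0 and 1 of 11 for translation factors, 1 and 2 of 18 for assembly, 1 and 0 of 16 for synthetases, 1 and 0 of 6 for proteins with other symbols and 0 and 1 of 8 for regulators. Pnpt1 differed by -2.66 ± 0.36 (adjusted p = 0.000105), Mterf3 by -3.18 ± 0.61 (adjusted p = 0.00183), Mtif2 by -1.94 ± 0.41 (adjusted p = 0.00425), Gtpbp10, an assembly GTPase, by -2.08 ± 0.40 (adjusted p = 0.00209), and Eral1 of the same list by -1.95 ± 0.54 (adjusted p = 0.0205). Mycn was lower there too, by -1.69 ± 0.23 (adjusted p = 0.000132). Malsu1 (0.87), Cars2 (1.06) and Chchd1 (0.53) were higher, with adjusted p of 0.0333, 0.0310 and 0.0437. In d4c7 FGF2 against d4c7 FR10, Tfb1m (-1.51), Tsfm (-1.78), Pnpt1 (-1.30), Mycn (-1.26) and Yy1 (-0.84) were lower, and Gadd45gip1, a mitoribosome protein with another symbol, was higher (0.70), with adjusted p between 0.00949 and 0.0446. These 6 were the only calls among the 71 genes in that comparison.

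The 2 gene sets closest in function were the cytosolic ribosomal proteins and the nuclear subunits of oxidative phosphorylation. In day-4 PGCLCs against EpiLCs, 1 of 79 cytosolic ribosomal protein genes was higher and 38 lower with a median of -0.50, and 6 of 78 oxidative phosphorylation genes were higher and 19 lower with a median of -0.26. The mitoribosome genes had 14 higher and 12 lower of 76 with a median of -0.13, and all tested genes 27.5% higher and 12.1% lower with a median of 0.34. With median-ratio factors the counts were 0 higher and 56 lower for cytosolic ribosomal proteins, 0 higher and 36 lower for oxidative phosphorylation and 4 higher and 28 lower for the mitoribosome, beside 17.4% higher and 18.7% lower of all tested genes. In d4c7 CsA against d4c7 FR10 all 3 sets had 0 called, with medians of 0.41, 0.33 and 0.00 in the same order, beside -0.24 over all tested genes. In d4c7 FGF2 against d4c7 FR10 the sets had 5, 1 and 2 genes higher and 0, 0 and 1 lower, with medians of 0.38, 0.19 and 0.02, beside -0.33 over all tested genes. These are counts and medians, and the differences between the sets were not tested.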

How the data were processed

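The 18 libraries were measured with SC3-seq, sequencing of transcript ends, with 1 ng of RNA as input per the labels. The authors deposited 1 RPM value per gene and library, reads scaled to a common library total. Tools listed in the submitters' processing notes are Cufflinks 2.2.0, TopHat 1.4.1 and cutadapt 1.3, with mm10 as build and no roles stated. Neither the counting nor the strand setting is given in the sources used here. Of 34896 rows, 46 without a value were left out.

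Genes at 10 RPM or more in at least 2 libraries (9561) were fitted with limma 3.58.1 in R 4.3.3 on log2(RPM + 1), with all 18 libraries, a mean per group, an empirical Bayes trend and 9 residual degrees of freedom. P-values were adjusted over all tested genes by Benjamini-Hochberg. A count model was not used because the values did not come out as whole reads throughout. On simulated data for day-4 PGCLCs against EpiLCs (9561 genes), differences of 2 on the log2 scale were recovered in 65 of 67 genes and differences of 1 in 13 of 67. No rate for the members is given, whose median level was 94.4 RPM against 29.2 RPM over all tested genes.

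The members and lists were chosen with earlier results of these data known. Named genes are up to 10 higher and 10 lower called members per comparison by size without overlap of groups, the 3 smallest p where fewer than 3 were called, a panel of 6, and up to 3 called genes of each other list; of these a part is given, and the other called members are named without values. Alternatives were median-ratio scaling, pseudocounts of 0.1 and 10 RPM, no filter, a filter of 50 RPM, the replicate number as a block, no variance trend, each replicate left out, and 3 libraries left out together. Promoters and coordinates are from RefSeq (GRCm38.p6), and 3' overlaps from GENCODE M21.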

Additional observations from a re-analysis of the deposited data

How the results depend on the processing

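Medians of the members moved mainly with scaling. With median-ratio factors they were -0.48 in day-4 PGCLCs against EpiLCs, -0.32 against ESCs, 0.21 in d4c7 FR10 against day-4 PGCLCs, 0.23 in d4c7 CsA, 0.15 in FGF10 and 0.32 in FGF2 against d4c7 FR10, 0.073 in E9.5c5 CsA against E9.5c5 FR10 and 0.19 in E9.5c5 FR10 against d4c7 FR10. Without a filter the median in day-4 PGCLCs against EpiLCs was -0.11, and with a filter of 50 RPM -0.17.

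Replicate 2 of d4c7 FGF2, E9.5c5 FR10 and E9.5c5 CsA was also left out together. Then 10 members were called in EpiLCs against ESCs (8 higher, 2 lower), 39 in day-4 PGCLCs against EpiLCs and 29 against ESCs. The counts were 24 in d4c7 FR10 against day-4 PGCLCs (17 higher, 7 lower) and 4 in CsA against d4c7 FR10 (1 higher, 3 lower). Without the variance trend 1 was called in EpiLCs and 0 in FGF2, and without a filter 0 in FGF2. In FGF2 against d4c7 FR10 median-ratio factors gave 7.

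With 1 library left out, the counts ran from 0 to 1 in EpiLCs against ESCs, from 9 to 18 in day-4 PGCLCs against EpiLCs, from 7 to 15 against ESCs, from 4 to 7 in d4c7 FR10 against day-4 PGCLCs, from 0 to 8 in FGF2, from 0 to 3 in E9.5c5 CsA and from 0 to 1 in E9.5c5 FR10 against d4c7 FR10. The lone library was then assumed to vary like the other groups. The medians ran from -0.097 to -0.016 in day-4 PGCLCs against EpiLCs, from -0.025 to 0.058 in d4c7 CsA, from -0.108 to 0.027 in E9.5c5 CsA and from -0.045 to 0.060 in E9.5c5 FR10 against d4c7 FR10.

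The replicate numbers were not taken as pairs. Over 36 pairs of groups the correlation of replicate differences ran from -0.102 to 0.340 with a median of 0.00708, and the 7 over 0.1 were all between cultured groups, with 0.104 between FGF2 and FR10 of d4c7. With the replicate number as a block the members called were 2 in EpiLCs, 27 in day-4 PGCLCs against EpiLCs, 19 against ESCs, 12 in d4c7 FR10 against day-4 PGCLCs and 6 in FGF2, and 0 in the others.

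Over all tested genes a filter of 50 RPM gave 851 calls in EpiLCs, 2256 in day-4 PGCLCs against EpiLCs, 1974 against ESCs and 806 in d4c7 FR10 against day-4 PGCLCs, in place of 1525, 3784, 3299 and 1456. No filter gave 2323 in EpiLCs, 495 in FGF2 in place of 845, and 26, 25, 5 and 27 in CsA, FGF10, E9.5c5 CsA and E9.5c5 FR10 against d4c7 FR10, in place of 3, 0, 0 and 4. Without the 3 libraries the counts were 2806 in EpiLCs, 2941 in d4c7 FR10 against day-4 PGCLCs, and 968, 41, 9 and 31 in those 4. With 1 library of either group left out they were 732 to 838 in EpiLCs, 2253 to 2689 in day-4 PGCLCs against EpiLCs, 1887 to 2241 against ESCs, 515 to 826 in d4c7 FR10 against day-4 PGCLCs, 5 to 1719 in FGF2, 0 to 649 in E9.5c5 CsA and 0 to 259 in E9.5c5 FR10 against d4c7 FR10. In FGF2 median-ratio factors gave 548. The other alternatives that keep all 18 libraries gave at most 21 in CsA, 3 in E9.5c5 CsA and 9 in E9.5c5 FR10. Leaving out replicate 1 or 2 of E9.5c5 CsA, which changes the shared spread, gave 98 and 87 in CsA and 1852 and 1843 in FGF2. Direction under the alternatives was followed only for selected named genes, each in the comparison where it is named, and none of these changed direction. The other members were not followed singly. The large subunit median in day-4 PGCLCs against EpiLCs did change sign.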
